A study of Mus musculus with 6 samples.

Results

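Among the tRNA-derived small RNAs (tDRs) counted in mouse brain, 80 of 591 tDR IDs are listed under tRNA precursors only, not counting those of Tyr-GTA. An ID was kept when every tRNA name given for it starts with "pre-", and IDs whose names are all precursors of Tyr-GTA (8 IDs) were left out. The 80 IDs carry 24 amino acid and anticodon names and 38 of the 167 precursor genes in the table. Of these IDs, 64 are named to 1 precursor gene and 16 to several copies with 1 anticodon. Beside the 8 IDs left out, the other IDs of the table comprise 174 with mature tRNA names only and 329 with both kinds of name. The samples are labelled as brain of C57BL/6 mice, an inbred laboratory strain, aged 3 months or 22 months, with 3 libraries at each age and no treatment or allele named. Total RNA was taken up in Trizol and small RNAs were sequenced on an Illumina NextSeq. The labels do not say that the libraries of one age come from separate animals, so the p-values measure the spread between these libraries, which may be technical.

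A tRNA gene is transcribed by RNA polymerase III into a precursor that carries a 5′ leader and a 3′ trailer, and the polymerase stops at a run of uridines. RNase P removes the leader and RNase Z (ELAC2) removes the trailer, after which CCA is added to the 3′ end and, in some tRNAs, an intron is spliced out. Released trailers are a known class of small RNA, often called tRF-1 or 3′U tRNA fragments, and are bound by the La protein through their terminal uridines. The table does not give the sequence of the fragment, so leader, trailer and junction fragments could not be told apart.

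The precursors below are among those described further on, and not all of them were abundant or passed a test. They are given as the deposited table lists them, 5′ to 3′, with the leader and the trailer in capitals. The part between them, in lower case, becomes the mature tRNA once any intron is spliced out. In 164 of 167 precursors the mature sequence of the same name was found, always after a leader of 39 bases and in 163 of them before a trailer of 40 bases. Thr-CGT-1-1, Arg-TCT-5-1 and Sup-TTA-1-1 have no mature sequence under the same name, and the flank lengths of the others were used for them. Leu-CAA genes carry an intron, and the lower-case part of Leu-CAA-4-1, which is 106 bases long, includes it.
Thr-CGT-1-1: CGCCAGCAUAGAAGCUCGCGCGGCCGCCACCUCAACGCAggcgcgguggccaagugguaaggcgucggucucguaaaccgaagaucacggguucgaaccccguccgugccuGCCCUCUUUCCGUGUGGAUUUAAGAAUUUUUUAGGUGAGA
Ala-CGC-2-1: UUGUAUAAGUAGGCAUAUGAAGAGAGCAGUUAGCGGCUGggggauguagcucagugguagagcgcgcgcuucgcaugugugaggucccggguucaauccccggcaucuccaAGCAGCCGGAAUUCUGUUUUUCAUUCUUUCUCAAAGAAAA
Arg-ACG-1-3: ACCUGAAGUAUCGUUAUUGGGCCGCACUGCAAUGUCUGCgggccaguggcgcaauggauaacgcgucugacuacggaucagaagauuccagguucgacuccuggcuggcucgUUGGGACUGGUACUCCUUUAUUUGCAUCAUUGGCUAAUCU
Asp-GTC-1-11: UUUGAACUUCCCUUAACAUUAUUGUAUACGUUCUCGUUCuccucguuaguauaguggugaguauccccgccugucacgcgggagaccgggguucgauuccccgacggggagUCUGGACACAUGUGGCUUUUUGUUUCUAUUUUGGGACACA
Val-CAC-1-1: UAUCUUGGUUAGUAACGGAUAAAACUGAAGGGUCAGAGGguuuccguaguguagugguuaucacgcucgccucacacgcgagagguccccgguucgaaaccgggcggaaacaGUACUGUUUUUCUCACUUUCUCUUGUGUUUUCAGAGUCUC
Val-TAC-1-1: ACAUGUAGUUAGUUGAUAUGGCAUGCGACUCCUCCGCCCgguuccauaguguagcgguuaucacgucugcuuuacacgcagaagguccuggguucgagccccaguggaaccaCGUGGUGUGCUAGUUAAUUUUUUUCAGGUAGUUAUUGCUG
Ser-GCT-4-3: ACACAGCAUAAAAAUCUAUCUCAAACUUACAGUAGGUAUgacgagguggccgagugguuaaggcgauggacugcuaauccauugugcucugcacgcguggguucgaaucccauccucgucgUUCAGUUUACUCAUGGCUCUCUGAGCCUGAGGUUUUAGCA
Leu-CAA-4-1: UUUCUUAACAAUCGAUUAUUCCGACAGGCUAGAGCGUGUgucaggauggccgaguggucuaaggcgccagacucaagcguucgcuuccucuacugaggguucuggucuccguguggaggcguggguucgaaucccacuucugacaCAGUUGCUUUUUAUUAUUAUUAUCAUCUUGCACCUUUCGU
The trailers of Val-CAC-1-1 and Leu-CAA-4-1 reach their first UUUU at base 7 and base 8 after the mature part. In Ala-CGC-2-1, Asp-GTC-1-11 and Val-TAC-1-1 that run starts at base 17, 17 and 18, in Thr-CGT-1-1 at base 27 and in Ser-GCT-4-3 at base 33. The trailer of Arg-ACG-1-3 holds no UUUU within its 40 bases.

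A search for UUUU on the listed strand of the trailer found it in 149 of 167 precursors (89.2%), and in 35 of the 38 that the precursor-only IDs name (92.1%). Among the 21 precursors to which at least 1 ID is named alone, the first UUUU started at a median of base 16 after the mature part (range 2 to 37, 20 with a run). Among the 129 precursors that none of the 80 IDs names it started at a median of base 9 (range 1 to 32, 114 with a run). These 129 include the Tyr-GTA precursors named by the 8 IDs left out, with starts from base 7 to base 14. A start at base 12 or later was found in 15 of the 21 (71.4%), in 24 of the 129 (18.6%) and in 44 of all 167 (26.3%). A run of 4 that starts at base 12 ends at base 15, and a trailer that ends at a later run is longer. The 21 were picked because a listed ID names them alone, which may itself depend on trailer length. These counts describe sequences in the table and were not tested, and the position of base 12 was set with earlier results known.

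**Figure D1:**
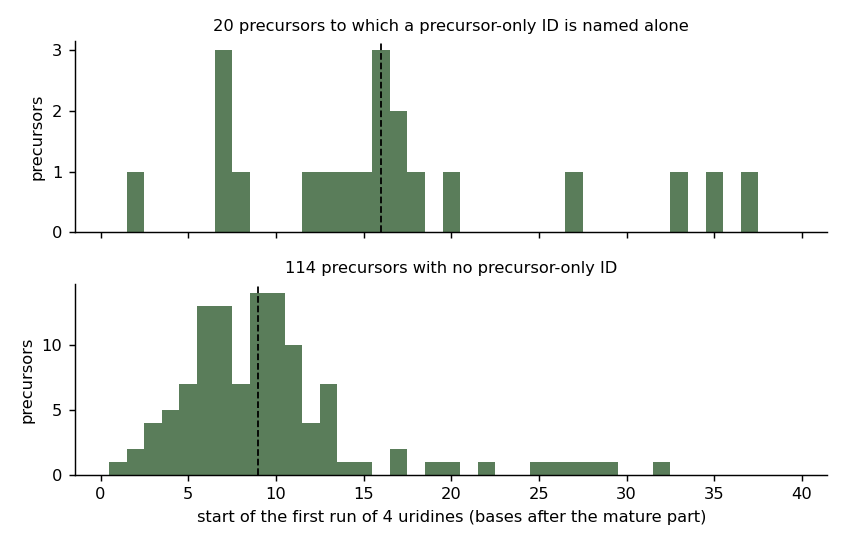
Histograms of the base, counted from the end of the mature part, at which the first run of 4 uridines starts in the trailer. The upper panel holds 20 precursors to which a precursor-only ID is named alone. The lower panel holds 114 precursors that none of the 80 IDs names, with the Tyr-GTA precursors of the IDs left out among them. Bars count precursors and dashed lines are the medians, base 16 and base 9.

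For IDs named to several gene copies, the longest identical stretch of those precursors bounds the fragment if it matches all of them exactly. All 9 Gly-CCC IDs are named to Gly-CCC-1-1 and Gly-CCC-1-2, which share 81 bases with 7 bases of leader and 3 of trailer, shown here because 7 of these 9 IDs are listed at 22 months only.
Gly-CCC-1-1 and Gly-CCC-1-2: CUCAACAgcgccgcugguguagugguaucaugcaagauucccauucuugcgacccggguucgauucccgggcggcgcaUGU
The 2 His-GTG IDs of His-GTG-2-3, 2-4 and 2-5 share 76 bases with 4 of the leader and 0 of the trailer.
His-GTG-2-3, 2-4 and 2-5: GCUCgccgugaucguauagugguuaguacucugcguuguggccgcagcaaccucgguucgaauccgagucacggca
For Gln-TTG (2 IDs) and iMet-CAT (1 ID) the shared stretches lie wholly in the mature part, with 0 bases of either flank. These IDs are precursor-only by name and need not hold a leader or a trailer.

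The build named in the submitters' processing notes is mm10. A match of precursor flanks to RefSeq promoter windows of GRCm38.p6 placed 6 of the 38 precursors. The Arg-ACG-1-3 tRNA lies at chr14:54517696-54517768 on the plus strand (n-TRacg6). Of its precursor of 152 bases, 64 lie within the promoter window of Prmt5, which is on the minus strand. Gly-CCC-1-1 lies at chr6:86403893-86403963 on the plus strand (n-TGccc4), with 35 of the 150 bases of its precursor in the promoter window of Tia1. His-GTG-2-5 lies at chr3:96452495-96452566 on the plus strand (n-THgtg7), with 101 of the 151 bases of its precursor in the window of BC107364. The remaining matches were Ala-AGC-2-1 at chr13:21222586-21222657 (Gm32420), Arg-TCG-1-1 at chr7:79466419-79466491 (Polg) and Asn-GTT-3-8 at chr10:80249159-80249232 (Ndufs7), all on the plus strand.

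Listed tags summed to 57425, 45131 and 44156 in replicates 1 to 3 at 3 months and to 71121, 96130 and 84807 at 22 months. No value between 0 and a minimum is listed. The minimum in replicates 1 to 3 is 11, 8 and 9 tags for the younger and 13, 17 and 17 tags for the older mice, or 177 to 204 counts per 1000000 listed tags (CPM), so a value of 0 stands for anything below that level. Replicate 3 at 22 months stood apart over these IDs: its Spearman correlation with the other libraries across the 80 IDs, which share the listing minimum, was 0.623 to 0.828, against 0.807 to 0.9 between all other libraries.

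The share of precursor-only fragments among listed tags was lower in every 22 month library than in any 3 month library. They made up 8.02%, 8.89% and 8.16% at 3 months (8.35% ± 0.465, SD, n = 3) and 7.24%, 5.64% and 4.54% at 22 months (5.81% ± 1.36, SD, n = 3). The difference was -2.55 percentage points (exact two-sided permutation test, p = 0.1, the smallest that 3 against 3 libraries allow). A 95% Wilson interval, which takes each tag as an independent draw, was 4.40% to 4.68% for the lowest library. It leaves out the spread between libraries of one age, which was larger than counting error. Over all IDs, chi-square per degree of freedom between 2 such libraries was 6.6 to 10.2 at 3 months and 16.9 to 59.7 at 22 months. The number of precursor-only IDs listed was 58, 63 and 57 at 3 months and 56, 48 and 47 at 22 months. Of all kinds of ID, 439, 463 and 447 were listed at 3 months and 459, 413 and 373 at 22 months, so that precursor-only IDs were 12.8% to 13.6% of listed IDs at 3 months and 11.6% to 12.6% at 22 months. Without replicate 3 at 22 months the remaining libraries were at 7.24% and 5.64%, still below the 3 month libraries.

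The Ala-CGC precursor lay the other way. With the Ala-CGC IDs left out, a choice made after their direction was seen and so given with no test, the share was 7.16% ± 0.447 at 3 months and 4.06% ± 0.950 at 22 months, a difference of -3.10 percentage points (SD, n = 3) that this choice enlarges. Ala-CGC alone was 15.8%, 14.0% and 13.1% of precursor-only tags at 3 months and 30.8%, 27.8% and 31.5% at 22 months. Thr-CGT was 29.5%, 33.1% and 29.2% at 3 months and 22.3%, 23.7% and 20.9% at 22 months. Ala-CGC tags per Thr-CGT tag, a ratio that no scaling between libraries can change, were 0.537, 0.424 and 0.448 at 3 months and 1.38, 1.17 and 1.51 at 22 months. Thr-CGT was thus the more abundant of the pair in every 3 month library, and Ala-CGC in every 22 month library.

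**Figure D2:**
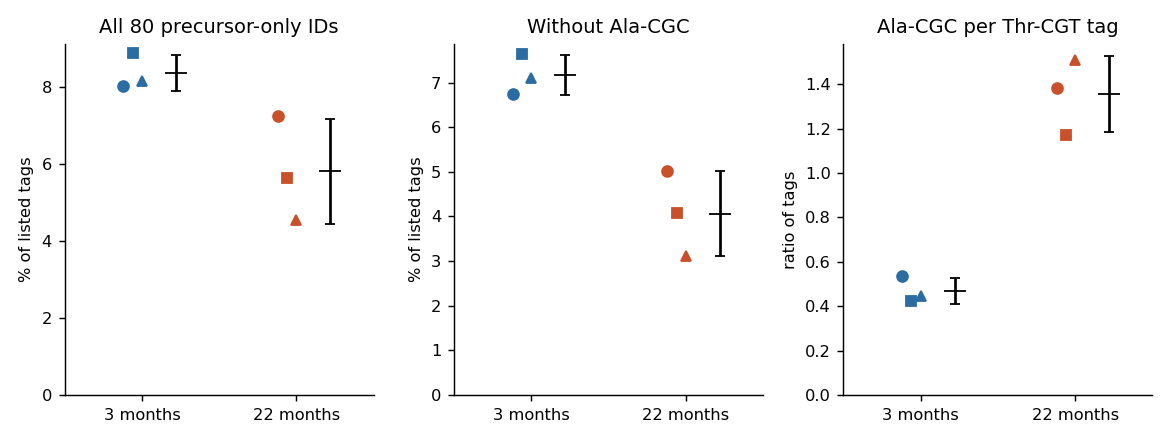
Precursor-only tags as a percentage of all listed tags (left), the same without Ala-CGC (middle) and the ratio of Ala-CGC to Thr-CGT tags (right), for each library. Circles, squares and triangles are replicates 1, 2 and 3, and bars are mean ± SD. In all 3 panels the ages do not overlap, the shares lower and the ratio higher at 22 months.

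Single IDs were tested with edgeR's quasi-likelihood test on the whole table, with Benjamini-Hochberg adjustment over the 439 IDs that passed a filter on low counts. Libraries were scaled by TMM, which sets library sizes so that most IDs do not differ between libraries. Of the 80 precursor-only IDs, 54 entered the test and 26 did not. At an adjusted p under 0.05, 1 of the 54 rose, where 4.78% of all IDs tested rose, and 3 fell, where 1.82% of all IDs fell. The other 50 did not pass. At an unadjusted p under 0.05, 5 of the 54 were higher, where 15.7% of all IDs tested were, and 17 were lower, where 9.79% were.

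Most of the tested IDs had lower values at 22 months. The log2 difference between the ages was negative for 39 and positive for 15, with a median of -0.66, against -0.16 over all 439 IDs, -0.01 over 119 mature-only IDs and -0.13 over 258 IDs with both kinds of name. In 23 of the 54 (42.6%) all 3 libraries at 22 months lay below all 3 at 3 months, where 20.0% of all IDs tested did. In 8 of the 54 (14.8%) all 3 lay above, where 19.4% of all IDs did, and 5 of these 8 are the Ala-CGC IDs. Scaling by library size alone moved the median of all IDs to -0.34 and that of the precursor-only IDs to -0.83, and left 3 IDs with higher, non-overlapping values. With each 0 replaced by 1 tag below the smallest listed count, the medians were 0.07 over all 591 IDs and -0.14 over the 80. These lists were described by counts and medians and the differences between them were not tested.

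**Figure D3:**
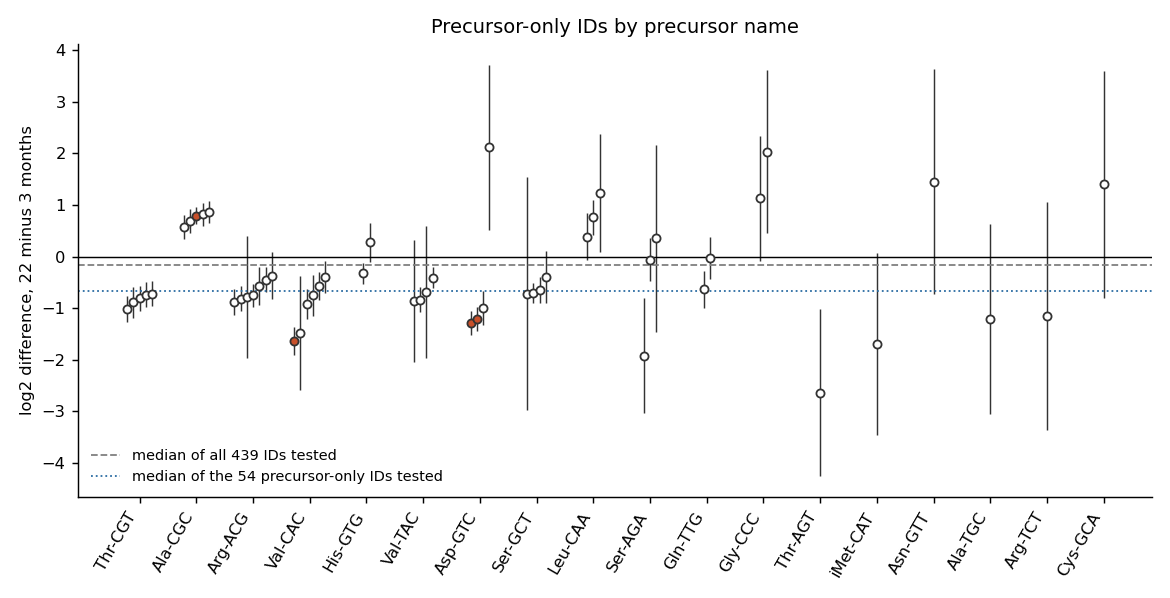
Log2 difference (22 minus 3 months, edgeR, TMM scaling) of 53 of the 54 tested precursor-only IDs, grouped by precursor name in order of abundance. Bars are standard errors, filled points passed an adjusted p of 0.05, and the dashed and dotted lines are the medians of all 439 IDs tested (-0.16) and of the 54 (-0.66); AS-tDR-011577 of Trp-CCA, listed at 0 in all 22 month libraries, is not drawn.

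Tags were also summed by name, since IDs of one precursor overlap. Each ID of the table entered 1 sum, and 20 of the 24 precursor-only names were among the 103 sums tested. Of these 20, 1 rose, where 8.74% of all sums did, and 4 fell, where 4.85% of all sums did. The sum for Ala-CGC rose, and the sums for Val-CAC, Asp-GTC, Ala-AGC and Trp-CCA fell. The table holds 5 sums of any kind that fell, these 4 among them, but the calls for Ala-AGC and Trp-CCA rest on zeros. The sums for Ala-AGC and Trp-CCA were listed at 0 in every 22 month library, and so passed the filter through the 3 month libraries alone. The test took these zeros as counts, although a 0 stands for anything below the listing minimum. Both the 4 and the 4.85% above count these calls. Values of 9 sums lay lower at 22 months without overlap (19.4% of all sums did) and 2 lay higher without overlap (22.3% of all sums did).

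**Figure D4:**
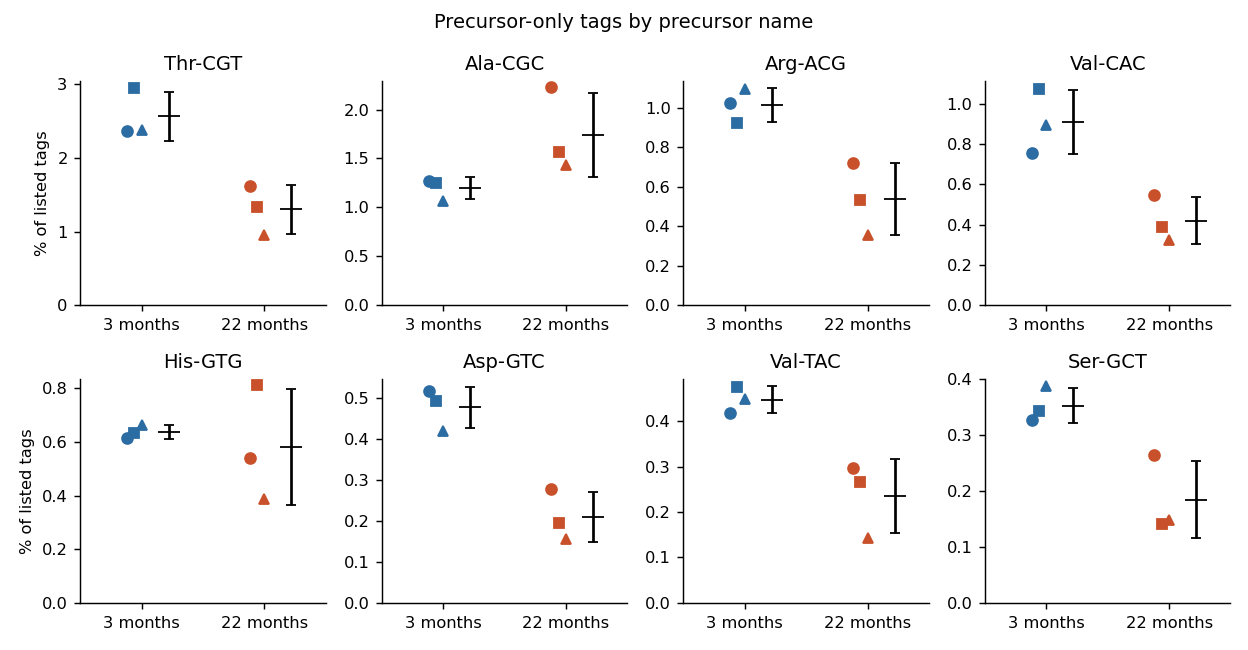
Tags of the 8 most abundant precursor names as a percentage of all listed tags in each library. Circles, squares and triangles are replicates 1, 2 and 3 and bars are mean ± SD; Ala-CGC lies higher at 22 months, His-GTG overlaps, and the other 6 lie lower in every 22 month library.

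Thr-CGT-1-1 gave the most abundant precursor-only fragments. Its 5 IDs summed to 1358, 1328 and 1050 tags at 3 months and 1148, 1284 and 803 at 22 months. As shares of listed tags these were 2.56% ± 0.330 at the younger and 1.30% ± 0.335 at the older age (SD, n = 3). The shares did not overlap between the ages. The sum had a log2 difference of -0.66 (SE 0.19) and did not pass (edgeR, adjusted p = 0.0659). The main fragment, AS-tDR-011549, had 652, 589 and 438 tags at 3 months and 546, 569 and 363 at 22 months, or 10785 ± 1878 and 6458 ± 1238 CPM after TMM scaling. The lowest log2 difference of the name was that of AS-tDR-011555, with 77, 84 and 86 tags at 3 months and 66, 71 and 46 at 22 months (-1.01, SE 0.25, edgeR adjusted p = 0.0582). All 5 log2 differences were negative, from -1.01 to -0.72. In 4 of the 5 the values lay lower at 22 months without overlap, where 20.0% of all IDs tested did. The IDs of 1 precursor are not independent of each other. Mature-named Thr-CGT tags were few, so that there were 3482, 6036 and 4200 precursor-only tags per 100 mature-named tags at 3 months, 1852 and 5136 in replicates 1 and 2 at 22 months, and no mature-named tag listed in replicate 3.

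Ala-CGC-2-1 was the precursor whose summed tags rose in the main test, while 1 of its 5 IDs passed singly. Its 5 IDs summed to 729, 563 and 470 tags at 3 months and 1588, 1504 and 1212 at 22 months. As shares of listed tags these were 1.19% ± 0.113 and 1.74% ± 0.430 (SD, n = 3), without overlap. The log2 difference of the sum was 0.87 (SE 0.17, edgeR adjusted p = 0.0207), and by library size alone it was 0.54 with an adjusted p of 0.179 (edgeR). Of the single IDs, AS-tDR-011563 passed: it had 135, 121 and 124 tags at 3 months and 327, 358 and 287 at 22 months, or 2457 ± 261 and 4261 ± 234 CPM (log2 difference 0.79, SE 0.17, edgeR adjusted p = 0.049). Its 3 libraries at 22 months all lay above those at 3 months. The most abundant ID, AS-tDR-011562, had 236, 186 and 127 tags at 3 months and 468, 467 and 349 at 22 months (log2 difference 0.69, SE 0.23, edgeR adjusted p = 0.116). AS-tDR-011559 had the highest difference, 0.87, and AS-tDR-011561 the lowest, 0.57, so the 5 IDs lay close together. The call for AS-tDR-011563 was lost when any 1 of the 6 libraries was left out, with adjusted p from 0.0567 to 0.141 (edgeR). The call for the sum held without any 1 of the 22 month libraries and was lost without any 1 of the 3 month libraries.

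Arg-ACG-1-3 has 7 IDs that summed to 587, 417 and 483 tags at 3 months and 514, 512 and 302 at 22 months. Its share was 1.01% ± 0.0853 and 0.537% ± 0.183 of listed tags (SD, n = 3), without overlap, and the sum did not pass (log2 difference -0.60, SE 0.18, edgeR adjusted p = 0.0676). AS-tDR-008900, the main fragment, had 244, 175 and 195 tags at 3 months and 194, 205 and 111 at 22 months (log2 difference -0.82, SE 0.24, edgeR adjusted p = 0.0861). The 7 log2 differences ran from -0.87 for AS-tDR-011547 to -0.37 for AS-tDR-013257. Of the 7 IDs, 3 lay lower at 22 months without overlap, where 20.0% of all IDs tested did. As for Thr-CGT, the precursor-only tags far outnumbered the mature-named ones where both were listed, with 1957 and 2683 per 100 in replicates 1 and 3 at 3 months and 2327 in replicate 2 at 22 months. In the other 3 libraries no mature-named Arg-ACG tag was listed.

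The Asp-GTC sum fell, and both IDs of this name that passed belong to 1 gene copy. The name summed to 297, 222 and 185 tags at 3 months and 197, 188 and 132 at 22 months (log2 difference -0.87, SE 0.18, edgeR adjusted p = 0.0207). The ages did not overlap as shares of listed tags, at 0.476% ± 0.0510 and 0.209% ± 0.0618 (SD, n = 3). AS-tDR-008906 of Asp-GTC-1-11 had 168, 139 and 109 tags at 3 months and 105, 93 and 64 at 22 months, and fell by 1.21 on the log2 scale (SE 0.24, edgeR adjusted p = 0.0489). AS-tDR-011793 of the same precursor had 69, 49 and 43 tags at 3 months and 37, 33 and 25 at 22 months, and fell by 1.29 (SE 0.24, edgeR adjusted p = 0.0489). For both, every 22 month library lay below every 3 month library in TMM-scaled CPM. The fourth Asp-GTC ID, AS-tDR-010736, belongs to Asp-GTC-1-5 and Asp-GTC-1-9 and had 14, 0 and 0 tags at 3 months and 32, 21 and 24 at 22 months. It did not pass (log2 difference 2.12, SE 1.60, edgeR adjusted p = 0.476). The calls for AS-tDR-008906 and AS-tDR-011793 were lost when any 1 library was left out, and that for the sum without any 1 of the 3 month libraries or without 22 month replicate 2.

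Val-CAC fell as a sum, with 435, 485 and 396 tags at 3 months and 390, 373 and 275 at 22 months (log2 difference -0.79, SE 0.19, edgeR adjusted p = 0.0352). The call was lost when any library but 22 month replicate 1 was left out, with an adjusted p of 0.0625 without 22 month replicate 3 (edgeR). The IDs of Val-CAC-1-1 lay lower as shares of listed tags, without overlap, with 0.249%, 0.255% and 0.285% at 3 months and 0.148%, 0.112% and 0.136% at 22 months. AS-tDR-009918 of Val-CAC-1-1 had 43, 42 and 38 tags at 3 months and 17, 21 and 20 at 22 months, or 797 ± 114 and 255 ± 24.5 CPM. It fell by 1.64 on the log2 scale (SE 0.27, edgeR adjusted p = 0.0489), and its call held without 22 month replicate 3 and was lost without any 1 of the other libraries. Another fragment of Val-CAC-1-1, AS-tDR-010786, had 54, 36 and 34 tags at 3 months and 37, 36 and 61 at 22 months, with overlap (log2 difference -0.40, SE 0.31). Of the 6 Val-CAC IDs, 4 lay lower at 22 months without overlap, where 20.0% of all IDs tested did.

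Val-TAC and Ser-GCT gave lower values that did not pass. Val-TAC-1-1 summed to 240, 215 and 198 tags at 3 months and 212, 255 and 121 at 22 months (log2 difference -0.61, SE 0.21, edgeR adjusted p = 0.104). Ser-GCT-4-3 summed to 188, 155 and 171 tags at 3 months and 188, 136 and 126 at 22 months (log2 difference -0.62, SE 0.19, edgeR adjusted p = 0.0676). As shares of listed tags neither overlapped between the ages. The mature-named Ser-GCT tags were 0, 10 and 18 at 3 months and 261, 42 and 117 at 22 months, all higher at the older age.

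His-GTG differed between libraries more than between ages. The name summed to 353, 285 and 293 tags at 3 months and 383, 781 and 329 at 22 months (log2 difference 0.22, SE 0.27, edgeR adjusted p = 0.644). Most of the excess in 22 month replicate 2 came from AS-tDR-001324, which had 262, 214 and 197 tags at 3 months and 305, 677 and 233 at 22 months. Without that library its log2 difference turned from 0.27 to -0.23. Leu-CAA-4-1 summed to 63, 65 and 63 tags at 3 months and 146, 100 and 109 at 22 months, and did not pass (log2 difference 0.47, SE 0.24, edgeR adjusted p = 0.225). In AS-tDR-015066 of that precursor, 22, 13 and 21 tags at 3 months stood against 51, 37 and 49 at 22 months, without overlap, while AS-tDR-009313 had 0, 21 and 24 tags at 3 months and was listed at 0 at 22 months.

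The least abundant names were listed near the minimum. Of the 80 IDs, 36 were above 0 in all 6 libraries and 13 in 1 library only. At 0 in every 22 month library were 20 of the 80 (25%), against 87 of all 591 IDs (14.7%) and 34 of the 174 mature-only IDs (19.5%). At 0 in every 3 month library were 7 of the 80 (8.75%), all of Gly-CCC, against 61 of all 591 (10.3%). These shares were not tested against each other. Ala-AGC-2-1 summed to 38, 33 and 22 tags at 3 months over 4 IDs and 0 in every 22 month library, and the sum fell (edgeR adjusted p = 0.0207). Trp-CCA-3-1 summed to 11, 25 and 24 tags over 2 IDs and 0 at 22 months, and the sum fell as well (edgeR adjusted p = 0.0363). Both calls were lost without any 1 of the 3 month libraries, and that of Trp-CCA also without 22 month replicate 2 and when each 0 was replaced by 1 tag below the smallest listed count (log2 difference -0.96, edgeR adjusted p = 0.154). None of these IDs passed singly, 1 of the 6 having entered the test, and no fold is given for these sums because several unlisted IDs could each lie just under the minimum. AS-tDR-011577 of Trp-CCA had 11, 10 and 12 tags at 3 months (edgeR adjusted p = 0.0775, not past the threshold). In CPM without TMM scaling it averaged 228 at 3 months, and the smallest listed levels at 22 months averaged 187. On that scale it was at least 1.22-fold lower at 22 months. With TMM scaling its 3 month mean was 214 CPM, and no bound was computed on that scale.

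Gly-CCC was, beside Ala-CGC, the other name whose summed values lay higher at 22 months without overlap. Its 9 IDs summed to 38, 10 and 0 tags at 3 months and 104, 132 and 318 at 22 months, without overlap, and did not pass (edgeR adjusted p = 0.0851). Most of the tags of 22 month replicate 3 lay in IDs listed in few libraries: AS-tDR-003121 had 0, 19 and 79 tags at 22 months, and AS-tDR-013798 and AS-tDR-013764 had 62 and 54 tags in replicate 3 and 0 in all others. In CPM without TMM scaling, AS-tDR-003121 was at least 1.97-fold higher at 22 months against the mean of the smallest listed levels at 3 months. Without replicate 3 its mean at 22 months was 98.8 CPM, below that level of 190.9 CPM, and no bound remained. Without replicate 3 at 22 months the log2 difference of the sum was 2.46 with an adjusted p of 0.239 (edgeR), against 3.27 with all libraries. IDs with a mature Gly-CCC name were far more abundant, so that the precursor-only tags came to 0.331, 0.131 and 0 per 100 of them at 3 months and 0.673, 0.533 and 1.77 at 22 months. Most of those mature-named tags belong to IDs that also carry a Gly-GCC name. These IDs held 10599 of 11497 tags in 3 month replicate 1 and 22293 of 24778 in 22 month replicate 2.

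Precursor-only tags were set against tags of IDs with at least 1 mature name of the same anticodon in the same library, which could be done in all 6 libraries for 8 anticodons. Some of these mature-named IDs also carry names of other anticodons. For Ala-CGC there were 98.9, 92.1 and 62.8 precursor-only tags per 100 mature-named tags at 3 months and 176, 194 and 159 at 22 months (mean log2 difference 1.08). For Asp-GTC there were 117, 97.4 and 74.0 at 3 months and 39.0, 53.7 and 38.8 at 22 months (-1.12). In both the ages did not overlap, with an exact permutation p of 0.1, the smallest possible, and 0.4 after adjustment over the 8. In the other 6 the ages overlapped, with log2 differences of -0.70 for Val-CAC, -0.44 for His-GTG, -0.31 for Leu-CAA, -0.26 for Ser-AGA, 0.01 for Gln-TTG and 0.47 for Val-TAC. The sign was not stable for 3 of these: His-GTG turned to 0.13 without 22 month replicate 3 and to 0.020 without IDs of both kinds of name, and Ser-AGA to 0.033 without 3 month and 0.057 without 22 month replicate 3. With 1 library left out Gln-TTG ranged from -0.14 to 0.19 and His-GTG from -0.98 to 0.13.

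**Figure D5:**
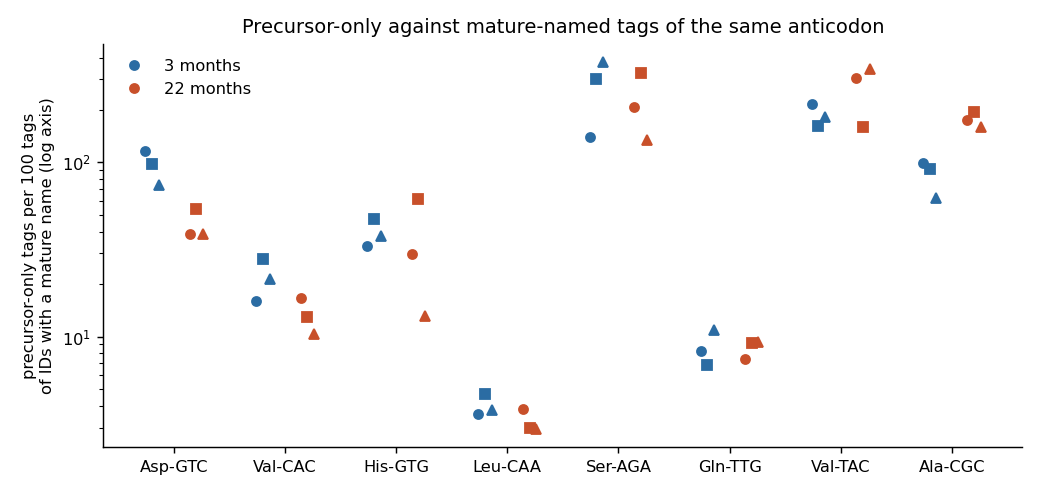
Precursor-only tags per 100 tags of IDs with a mature name of the same anticodon, on a log axis, in each library for the 8 anticodons with both kinds of tag in all 6 libraries. Circles, squares and triangles are replicates 1, 2 and 3; the ages do not overlap for Asp-GTC (lower at 22 months) and Ala-CGC (higher at 22 months).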

How the data were processed

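The authors deposited whole-number tag counts per tDR ID and parent, per the file headers; the title calls them normalized, but totals differ between libraries and they were used as raw counts. FastQC, cutadapt, Novoalign and mm10 are named, without versions, in the submitters' processing notes. The counting program and the listing minimum were not given in the sources used here. Counts repeat for each parent of an ID and were taken once. Columns headed Age and WT were taken as 22 and 3 months although the titles use other words, and 0 columns of other samples were found.

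The main test was edgeR 4.0.16 in R 4.3.3 (filterByExpr, minimum count 10; TMM; quasi-likelihood; adjusted p under 0.05 over all IDs or all sums), tried on simulated data. Shares and ratios were compared by exact permutation (scipy 1.17.1). Alternatives were other scalings, no filter, zeros replaced, DESeq2 1.42.0, limma-voom (limma 3.58.1), a replicate block and each library left out. Named IDs were the most abundant of each name, the extreme ones of names with 3 or more IDs, the 5 most abundant, those past the threshold, and those at 0 at 1 age and listed in every library of the other. AS-tDR-003121, AS-tDR-009313, AS-tDR-013764 and AS-tDR-013798 were named after their values were seen. The IDs and lists were chosen with earlier results of these data known. Precursor sequences are those of the deposited table, and 1 precursor is not reported here. Positions come from RefSeq (GRCm38.p6) by exact match of at least 25 bases that take in part of a flank.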

Additional observations from a re-analysis of the deposited data

How the results depend on the processing

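The number of single precursor-only IDs that rose (1) and fell (3) became 0 and 0 under library size alone, under scaling to the smallest listed count and without the filter. It became 2 and 4 with DESeq2 size factors, 3 and 12 among IDs above 0 in all 6 libraries, 0 and 5 with each zero replaced by 1 tag under the minimum, 4 and 15 with DESeq2 and 2 and 4 with limma-voom. Leaving out 1 library gave 0 rises and 0 to 1 falls. For name sums (1 rose, 4 fell) the counts were 0 and 0 under library size alone and under scaling to the smallest listed count, 1 and 2 above 0 in all libraries, 2 and 6 with zeros replaced, and 2 and 7 with DESeq2. Leaving out 1 library gave 0 to 1 rises and 0 to 8 falls, with 8 when 22 month replicate 1 was left out, 1 when 22 month replicate 2 was, and 0 for each 3 month library. The cause was not tested. Under library size alone and under the smallest listed count, both chosen for this purpose after seeing the data, 3 IDs were higher without overlap. Anticodons with a lower, non-overlapping precursor-only to mature ratio numbered 2 when IDs with both kinds of name were left out and 1 to 3 without 1 library, and those with a higher one 1 to 2.

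The labels do not say whether a replicate number pairs libraries. Same-numbered libraries correlated at -0.46, 0.04 and -0.34 in their deviations from the mean of their age. Not every library correlated best with its own number. Such deviations sum to 0 within an age, so these correlations cannot show whether the libraries were paired. With a replicate block, 0 IDs and 0 sums passed in either direction.

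Some named IDs changed sign. With 1 library left out the log2 difference ranged from -0.23 to 0.60 for AS-tDR-001324, from -0.59 to 0.018 for AS-tDR-013257, from -0.16 to 0.32 for AS-tDR-002316 (0.22 without 22 month replicate 3) and from -0.45 to 1.21 for AS-tDR-011566 (-0.16 without 3 month replicate 2). AS-tDR-002316 was at 0.051 with limma-voom and 0.014 with the replicate block, AS-tDR-011566 at -0.024 with limma-voom, and AS-tDR-015079 at 0.22 with zeros replaced. The share of listed tags kept its direction in every alternative run. Listed totals of 44156 to 96130 tags and the listing minimum limit the precision of low IDs.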
